A study of Mus musculus with 17 samples.

Results

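The genes described here encode proteins that hold complement in check on the cell surface (Cd55, Cd59a and Cr1l), complement components (C3 and Cfp) and the receptors for the anaphylatoxins released when complement is activated (C3ar1 and C5ar1). They were measured on 17 Affymetrix expression arrays of sorted mouse bone marrow cells. All probe sets (groups of short probes read out as 1 value) whose single gene symbol in the array platform's annotation is among these 7 genes were taken, which gave 15 of 45101 probe sets for 6 genes. Cd55, Cr1l and C3ar1 had 3 probe sets each, and Cd59a, Cfp and C5ar1 had 2 each. No probe set carries C3 as its symbol in the annotation used here, so C3 was not analysed here. All 15 probe sets passed the filter on dim signal.

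Complement is a cascade of plasma proteins that ends in opsonisation of a target, recruitment of leukocytes and insertion of a lytic pore. Host cells are shielded by decay-accelerating factor (Cd55), which breaks up the convertase enzymes of the cascade, and by Cd59a, which blocks assembly of the lytic pore. Both proteins are held in the membrane by a glycosylphosphatidylinositol (GPI) anchor, whereas Cr1l (Crry), a rodent regulator that also acts on the convertases, spans the membrane. Blood cells that cannot make the anchor lack Cd55 and Cd59 on their surface, and this is the basis of haemolysis in paroxysmal nocturnal haemoglobinuria. The anchor defect removes the proteins from the surface. The arrays measured their messenger RNA.

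The study compared marrow cells that lack GPI-anchored proteins with cells that carry them, after targeted deletion of Pig-a (Piga), the gene for the catalytic subunit of the enzyme that starts anchor synthesis. In batch 1, GPI-negative (3 arrays) and GPI-positive (3 arrays) cells were sorted from the marrow of Pig-a knock-out mice. Batch 2 held 3 groups. GPI-negative cells came from C57BL/6 recipients given enriched marrow of Pig-a knock-out origin (4 arrays, here KO-graft cells). GPI-positive cells came from C57BL/6 recipients given wild-type marrow cells (3 arrays, WT-graft cells) and from wild-type C57BL/6 mice (4 arrays). Per the labels' protocols, cells were sorted with a fluorescent antibody mixture to CD24, CD48 and Gr-1. Knock-out donor marrow was exposed to 10 nM aerolysin, which binds GPI-anchored proteins and lyses the cells, over 30 minutes, and its recipients were irradiated with 9 Gy before the infusion. The protocols do not state these steps for the recipients of wild-type marrow, so GPI status, donor genotype and graft treatment cannot be told apart between the recipients. The sources used here do not give animal age, the cells in which the deletion was driven, or whether an array held 1 animal or several. P-values therefore measure the spread between arrays labelled as biological replicates.

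The labels were borne out by Piga, whose log2 difference was -2.04 between the knock-out fractions (adjusted p = 5.79e-09) and -3.62 between the recipients (adjusted p = 1.77e-12). Of the sort antigens, CD24 and CD48, both GPI-anchored, were part of this check and Gr-1 was not. Cd24a transcripts were lower and Cd48 transcripts higher in GPI-negative cells in all 3 comparisons. The sorted cells were a mixture. Markers of late neutrophils, monocytes, T and natural killer (NK) cells, B cells and erythroid cells were measured in all groups, and of these lists only the T and NK list held markers, 1 or 2 of 8, that lay below the 40th percentile of the array in a group, each time a GPI-positive one. The T and NK list differed most between the fractions. Its mean on the centred log2 scale was 5.06 to 5.13 on the knock-out GPI-negative arrays against 1.69 to 1.81 on the GPI-positive arrays, and 8 of 8 genes rose. In bulk RNA of such a mixture, fewer cells of a type and less RNA per cell cannot be told apart. The 3 knock-out GPI-positive arrays lay close together, with a median SD over the brighter genes of 0.064 on the log2 scale, against 0.14 to 0.17 in the other groups. Hybridisation controls, the signal of transcripts added in known amounts, averaged 8.33 ± 0.32 (SD, log2, n = 3) on knock-out GPI-negative arrays and 6.28 ± 0.28 (n = 3) on knock-out GPI-positive arrays. The log2 difference of the Gapdh 3' and 5' probe sets, a measure of RNA integrity, was -0.16 ± 0.13 and -1.02 ± 0.02 on the same arrays. Their part in the differences within batch 1 was not tested.

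The genes with a called difference were C5ar1, Cfp and Cd55. The 250 bases upstream of the transcription start given for each in the RefSeq table (build GRCm38.p6) are shown. The part of these sequences in the differences was not tested. Capitals mark matches, on either strand, to the GC box GGGCGG, the Sp1 motif.
C5ar1, chr7:16259339-16259588, minus strand: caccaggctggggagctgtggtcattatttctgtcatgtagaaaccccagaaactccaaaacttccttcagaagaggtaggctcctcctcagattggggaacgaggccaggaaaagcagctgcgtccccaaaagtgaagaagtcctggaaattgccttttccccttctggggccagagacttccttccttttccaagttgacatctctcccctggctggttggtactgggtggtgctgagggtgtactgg
Cfp, chrX:20931556-20931805, minus strand: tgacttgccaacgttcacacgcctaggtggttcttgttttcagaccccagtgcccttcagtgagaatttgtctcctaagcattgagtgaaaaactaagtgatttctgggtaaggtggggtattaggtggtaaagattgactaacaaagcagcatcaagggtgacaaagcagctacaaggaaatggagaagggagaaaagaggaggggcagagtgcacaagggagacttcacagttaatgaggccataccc
Cd55, chr1:130462745-130462994, minus strand: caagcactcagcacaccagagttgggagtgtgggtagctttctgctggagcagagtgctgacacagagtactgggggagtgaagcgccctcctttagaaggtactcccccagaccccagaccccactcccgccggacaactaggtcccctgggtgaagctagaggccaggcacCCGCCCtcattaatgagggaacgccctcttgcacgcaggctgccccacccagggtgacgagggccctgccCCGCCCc
The Cd55 window held 2 matches to the GC box, both as the reverse complement, which start 77 and 7 bases before the transcription start. The windows of C5ar1 and Cfp held no match. Of 32851 promoter windows of the same length, 32.7% held the GC box. The core motif of the myeloid factor PU.1 (GAGGAA, in 23.3% of windows) and a C/EBP motif (TTGCNNAA, in 9.6%) were searched on both strands as well and had no match in these 3 windows. Among the other members the PU.1 core occurred once, in Cd59a, the C/EBP motif once, in C3, and the GC box once, in C3ar1. These matches describe letters and not binding.

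The calls fell on C5ar1, Cfp and Cd55, and the comparisons with a call were not the same for each. Whether these genes differ from each other in their pattern was not tested. C5ar1 and Cfp were lower in GPI-negative than in GPI-positive cells of knock-out marrow. After transplantation Cd55 was higher in KO-graft than in WT-graft cells, and Cfp was higher in KO-graft than in wild-type cells. Cd55 was also called higher against wild-type cells, a call that was lost in 18 of 27 other settings. With the mean of probe sets neither gene was called there. No call was made for Cd59a, Cr1l or C3ar1 in any comparison. Values are given first as deposited, on a log10-like scale whose base was read from the values, and differences on the log2 scale with the standard error (SE) of a limma fit over all arrays. Each gene is represented by its brightest probe set. A difference was called at a Benjamini-Hochberg adjusted p below 0.05 over 14245 genes.

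**Figure D1:**
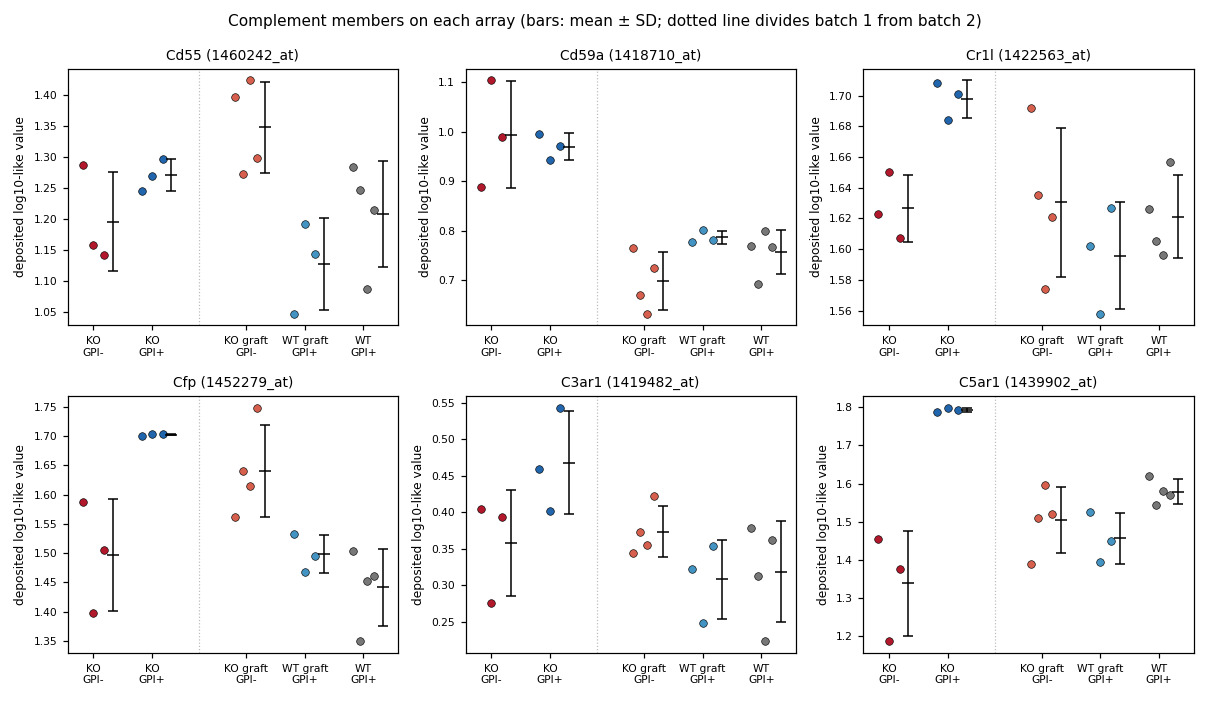
Deposited log10-like value of the brightest probe set of each of the 6 genes on every array, with groups on the horizontal axis and mean ± SD beside the points. The knock-out GPI-negative arrays lie at 1.187 to 1.455 for C5ar1, below the GPI-positive arrays at 1.788 to 1.798. The KO-graft arrays lie at 1.272 to 1.424 for Cd55, above the WT-graft arrays at 1.047 to 1.192.

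In knock-out marrow, 2 of the 6 genes tested were lower in GPI-negative cells and none was higher, where 29.5% of all genes changed and 14.8% were lower. The median log2 difference of the 6 genes was -0.31, and that of all genes was -0.01. C5ar1 encodes the receptor for the anaphylatoxin C5a, which draws neutrophils and other myeloid cells to sites of complement activation. On its brightest probe set the deposited value was 1.455, 1.187 and 1.376 on the GPI-negative arrays, against 1.788, 1.798 and 1.793 on the GPI-positive arrays. The groups did not overlap, and GPI-negative replicate 2 was the lowest. C5ar1 was 2.84-fold lower in GPI-negative cells (log2 difference -1.51 ± 0.18 SE, 3 arrays each, limma adjusted p = 1.91e-06). The exact two-sided permutation p was 0.1, the smallest that 3 against 3 arrays allow. The second probe set of C5ar1 had 1.335, 1.051 and 1.090 in GPI-negative cells against 1.758, 1.763 and 1.745 in GPI-positive cells. It differed in the same direction, by -1.98 ± 0.20 (adjusted p over all kept probe sets = 2.81e-07).

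Cfp encodes properdin, the plasma protein that stabilises the convertase of the alternative pathway and that neutrophils store and release. Its values were 1.588, 1.397 and 1.506 on the knock-out GPI-negative arrays and 1.701, 1.703 and 1.704 on the GPI-positive arrays, again without overlap. Cfp was 1.61-fold lower in GPI-negative cells (-0.68 ± 0.16, limma adjusted p = 0.00245, exact permutation p = 0.1). The call of Cfp was lost when the 3 GPI-positive arrays were averaged into 1 sample (adjusted p = 0.0787) and when its 2 probe sets were averaged (-0.24, adjusted p = 0.216). The second, dimmer Cfp probe set did not follow the first, with 0.715 to 1.003 in GPI-negative cells against 0.739 to 0.855 in GPI-positive cells and a log2 difference of 0.21 ± 0.19 (adjusted p = 0.465).

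Markers of several cell types moved in the same comparison. Of 10 late neutrophil markers tested 7 were lower in knock-out GPI-negative cells and none was higher, and the list mean was 9.02 to 9.44 in GPI-negative against 9.90 to 9.96 in GPI-positive cells. All 5 primary granule markers were lower too, as were 6 of 8 resident macrophage and 3 of 7 eosinophil, basophil and mast cell markers (Epx, Il5ra and Prg2). None was higher in these lists. All 8 T and NK cell, all 3 plasmacytoid dendritic cell and 5 of 7 B cell markers were higher. Of 8 monocyte markers 2 were higher and 1 lower, and the list mean overlapped at 5.45 to 5.93 against 5.67 to 5.75. The part of these cell types in the differences of C5ar1 and Cfp was not tested.

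The membrane regulators showed no call between the knock-out fractions. Cd55 had 1.287, 1.158 and 1.142 in GPI-negative cells against 1.245, 1.269 and 1.297 in GPI-positive cells, and the groups overlapped through GPI-negative replicate 1. Its difference was -0.25 ± 0.17 (adjusted p = 0.308), with a 95% confidence interval of -0.61 to 0.11. The 3 Cd55 probe sets were not alike here. The dimmest of them was lower (-0.38 ± 0.14, adjusted p = 0.0454) with no overlap between 0.859 to 0.943 in GPI-negative and 0.987 to 1.026 in GPI-positive cells, while the remaining probe set differed by 0.04 ± 0.20.

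Cd59a had 0.889, 1.104 and 0.989 in knock-out GPI-negative cells against 0.996, 0.942 and 0.971 in GPI-positive cells. The GPI-negative arrays spanned the GPI-positive ones, and the difference was 0.08 ± 0.15 (95% interval -0.24 to 0.40). Its sign turned without GPI-negative replicate 2 (-0.10), the array with the highest Cd59a value. Cr1l had 1.623, 1.650 and 1.607 in GPI-negative against 1.708, 1.684 and 1.701 in GPI-positive cells. These ranges did not overlap, yet the difference of -0.23 ± 0.11 did not pass over all genes (unadjusted p = 0.0403, adjusted p = 0.109). The other Cr1l probe sets differed by 0.12 and -0.10. C3ar1, the receptor for the anaphylatoxin C3a, was dim, its brightest probe set averaging the 30.6th percentile of its arrays in GPI-negative and the 44.6th in GPI-positive cells. Its difference was -0.36 ± 0.17 (adjusted p = 0.13), and its 95% interval ran from -0.73 to 0.00088.

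At the level of probe sets, 4 of the 15 were lower between the knock-out fractions and none was higher, where 25.4% of all kept probe sets changed. The groups did not overlap for 6 of the 15, against 39.5% of all kept probe sets.

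**Figure D2:**
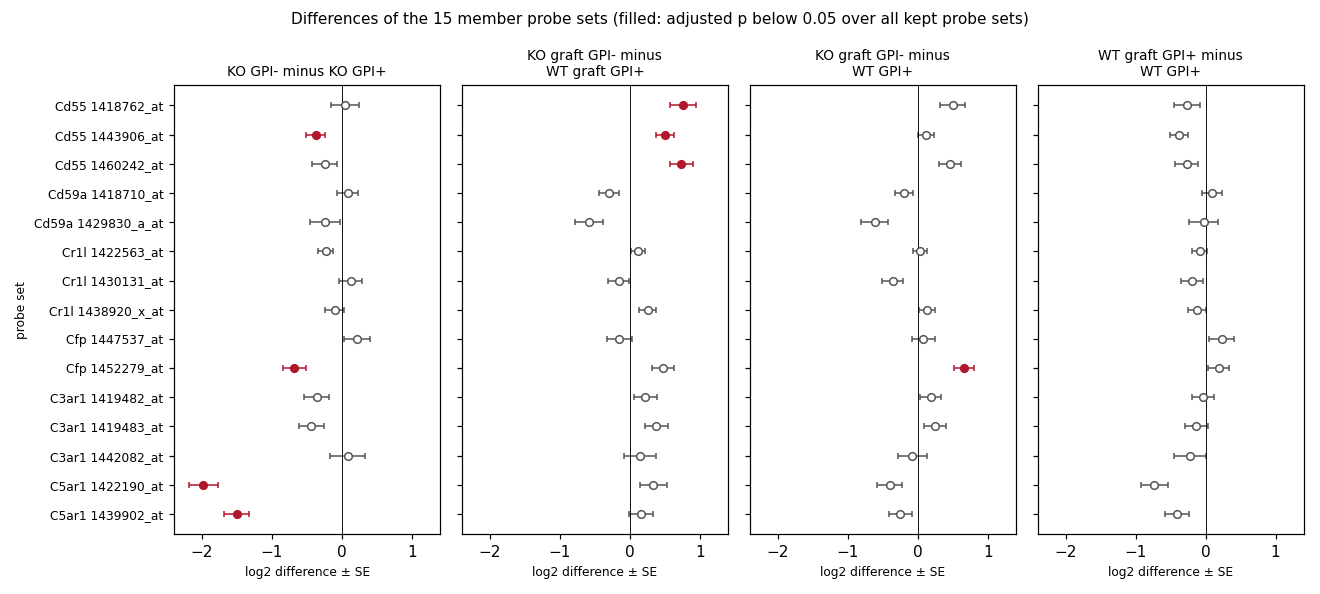
Log2 difference ± SE of each of the 15 probe sets in the 4 comparisons, with filled points where the adjusted p over all kept probe sets was below 0.05. Both C5ar1 probe sets lie furthest to the left in the knock-out comparison, at -1.98 and -1.51, and all 3 Cd55 probe sets lie to the right in KO-graft against WT-graft cells, at 0.50 to 0.76.

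Between the recipients, Cd55 was the single member called, higher in KO-graft cells, where 7.39% of all genes changed, 3.95% higher and 3.45% lower. Its values were 1.397, 1.272, 1.424 and 1.298 on the KO-graft arrays against 1.047, 1.192 and 1.143 on the WT-graft arrays. Every KO-graft array lay above every WT-graft array. The rise was 1.66-fold (0.73 ± 0.16 SE, 4 and 3 arrays, limma adjusted p = 0.00642, exact permutation p = 0.02857, the smallest these arrays allow). The other Cd55 probe sets rose as well, by 0.76 ± 0.19 (adjusted p = 0.021 over all kept probe sets) and 0.50 ± 0.13 (adjusted p = 0.0269), each without overlap between the groups. On the last of these, the dimmest, KO-graft cells differed from wild-type cells by only 0.12 ± 0.12 (limma adjusted p = 0.655). WT-graft cells lay below wild-type cells on it, by -0.38 ± 0.13, without a call (limma adjusted p = 0.193). Mouse Cd55 has a close copy, Cd55b, which is on the array under its own symbol but did not pass the filter on dim signal. The sources used here do not say how far the probes tell the 2 genes apart. Nor do they say so for Cd59a and its copy Cd59b, a symbol that no single-symbol probe set carries.

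Cd59a, the other GPI-anchored regulator, did not follow Cd55. Its values were 0.766, 0.671, 0.633 and 0.724 in KO-graft cells against 0.777, 0.801 and 0.782 in WT-graft cells. All KO-graft values were lower, but the difference of -0.29 ± 0.14 did not pass (unadjusted p = 0.0516, adjusted p = 0.257, exact permutation p = 0.05714). The second Cd59a probe set, of a type that can read several transcripts of the gene, differed by -0.59 ± 0.21 (adjusted p = 0.134). On it, 3 of the 4 KO-graft arrays had 0.383 to 0.502 and replicate 1 had 0.654, against 0.619 to 0.705 in WT-graft cells.

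On its brightest probe set Cfp was higher on every KO-graft array, at 1.561, 1.640, 1.615 and 1.748 against 1.533, 1.468 and 1.495 in WT-graft cells. The difference of 0.47 ± 0.15 missed the threshold (adjusted p = 0.0596, 95% interval 0.16 to 0.78, exact permutation p = 0.05714). It passed in 5 of 27 other settings, among them the omission of KO-graft replicate 1 (0.56, adjusted p = 0.0231). The dimmer Cfp probe set differed by -0.15 ± 0.18, with overlap between the groups (adjusted p = 0.778 over all kept probe sets). C5ar1 overlapped between the recipients, at 1.390, 1.510, 1.597 and 1.521 in KO-graft cells and 1.527, 1.395 and 1.449 in WT-graft cells (0.16 ± 0.17, adjusted p = 0.695). Cr1l differed by 0.12 ± 0.10 and C3ar1 by 0.22 ± 0.16, neither with a call (adjusted p = 0.6 and 0.527). Of the 15 probe sets 3 were higher and none lower, all of Cd55, where 4.08% of all kept probe sets changed. The groups did not overlap for 5 of the 15, against 12.7% of all kept probe sets.

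Against wild-type cells, Cd55 and Cfp were called higher in KO-graft cells, 2 of 6 genes, where 12.4% of all genes changed, 6.84% higher and 5.55% lower. This comparison uses the KO-graft arrays of the previous one, so the values for KO-graft cells are the same. The labels name no transplantation for the wild-type mice. GPI status, donor genotype, graft treatment and transplantation therefore cannot be told apart here. Cfp had 1.504, 1.349, 1.452 and 1.460 on the wild-type arrays, all below the lowest KO-graft value of 1.561. It was 1.58-fold higher in KO-graft cells (0.66 ± 0.14, limma adjusted p = 0.00264, exact permutation p = 0.02857). The dimmer Cfp probe set differed by 0.08 ± 0.16, and with the mean of both probe sets the difference was 0.37 without a call (adjusted p = 0.05).

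Cd55 had 1.284, 1.247, 1.087 and 1.215 on the wild-type arrays, and the highest of these lay above the lowest KO-graft value of 1.272. Its difference of 0.46 ± 0.15 passed narrowly (adjusted p = 0.0469, exact permutation p = 0.05714). It did not pass in 18 of 27 other settings, among them the omission of wild-type replicate 3 (0.33, adjusted p = 0.184) or of KO-graft replicate 3 (0.38, adjusted p = 0.143), and no Cd55 probe set passed over all kept probe sets (adjusted p = 0.0647 to 0.655). C5ar1 was not called, at -0.25 ± 0.16 (adjusted p = 0.371), nor was Cd59a at -0.19 ± 0.13, Cr1l at 0.03 ± 0.09 or C3ar1 at 0.18 ± 0.15. At the level of probe sets, 1 of 15 was higher, where 8.17% of all kept probe sets changed, and groups did not overlap for 2, against 13.5% of all kept probe sets. These were the brightest Cfp probe set and a Cr1l probe set that was lower on every KO-graft array without a call (-0.36 ± 0.14, adjusted p = 0.146).

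Markers of several cell types moved in the 2 comparisons of KO-graft cells as well. Of 8 monocyte markers 8 were higher in each. Their list mean was 6.13 to 6.71 in KO-graft cells, against 5.33 to 5.70 in WT-graft cells and 5.41 to 5.76 in wild-type cells. Late neutrophil markers showed no call in either comparison (list means 9.77 to 10.11, 9.73 to 9.85 and 9.93 to 10.06), while of 5 primary granule markers 5 were lower against WT-graft cells and 1 against wild-type cells. Of 8 resident macrophage markers 3 were lower against WT-graft cells and 7 against wild-type cells. Of 8 T and NK markers 7 were higher in KO-graft cells in both comparisons, and all 3 plasmacytoid dendritic cell markers were. Of 7 eosinophil, basophil and mast cell markers the same 4 (Cpa3, Fcer1a, Mcpt8 and Ms4a2) were higher in both. In each comparison 1 was lower, Epx against WT-graft cells and Il5ra against wild-type cells. Of 6 erythroid markers 3 were lower against WT-graft cells and 6 against wild-type cells. Of 7 B cell markers none was called against WT-graft cells and 2 (Ebf1 and Ms4a1) were lower against wild-type cells. The part of these cell types in the differences of Cd55 and Cfp was not tested.

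**Figure D3:**
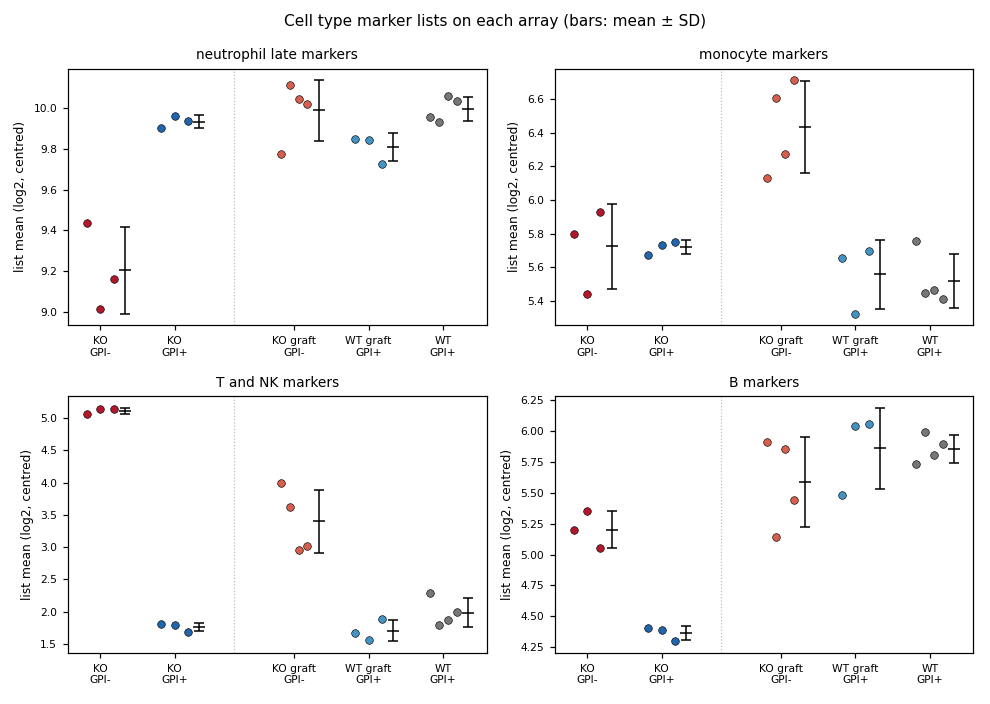
Mean of 4 cell type marker lists on every array, on the centred log2 scale, with groups on the horizontal axis and mean ± SD beside the points. The knock-out GPI-negative arrays are low for late neutrophil markers (9.02 to 9.44), and the KO-graft arrays are high for monocyte markers (6.13 to 6.71).

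In GPI-positive cells, transplantation alone gave no call among the 6 genes, where 0.842% of all genes changed between WT-graft and wild-type cells, 0.449% higher and 0.393% lower. C5ar1 alone had an unadjusted p below the level of 0.05 in limma, which was lost on adjustment (adjusted p = 0.271). Its values were 1.527, 1.395 and 1.449 in WT-graft cells against 1.621, 1.543, 1.581 and 1.569 in wild-type cells, without overlap, a log2 difference of -0.40 ± 0.17 and an exact permutation p of 0.02857. The second C5ar1 probe set was also lower without overlap, by -0.73 ± 0.19 (adjusted p = 0.0808 over all kept probe sets, where 0.617% changed). Groups did not overlap for 3 of the 15 probe sets, against 12.4% of all kept probe sets. Cd55 differed by -0.27 ± 0.16 and Cfp by 0.19 ± 0.15, with adjusted p of 0.486 and 0.624. The other Cd55 probe sets differed by -0.26 ± 0.19 and -0.38 ± 0.13, without a call.

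The difference between GPI-negative and GPI-positive cells was itself unequal in the knock-out and between the recipients, 2 contrasts that share no array but lie in different batches. For 3 of 6 genes the knock-out difference was below the recipient difference in limma's test of the interaction, where 19% of all genes were called, 9.04% higher and 9.96% lower. C5ar1 had -1.51 in the knock-out and 0.16 between the recipients, an interaction of -1.66 ± 0.25 (adjusted p = 0.000114). Cfp had -0.68 and 0.47, an interaction of -1.16 ± 0.22 (adjusted p = 0.000861), which was lost with the mean of its probe sets (-0.40, adjusted p = 0.156). Cd55 had -0.25 and 0.73, an interaction of -0.98 ± 0.24 (adjusted p = 0.00577), which was lost with the knock-out GPI-positive arrays averaged (adjusted p = 0.0652). Cd59a, Cr1l and C3ar1 did not pass (adjusted p = 0.23, 0.102 and 0.0961). Of the 15 probe sets 6 were lower in this test and none higher, one of them of C3ar1 (-0.82 ± 0.24, adjusted p = 0.0249), where 15% of all kept probe sets changed.

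The members also differed in which other genes they resembled over the arrays. Pearson correlations over 17 arrays, after each batch mean was subtracted, are given as a description, since arrays of a group share its composition. C5ar1 was most like Mtus1 (r = 0.976), Lin28a (0.972) and Lrg1 (0.964), and its correlation with the late neutrophil list mean was 0.95. Cfp was most like Ifitm2 (0.957), Cebpa (0.939), the gene of the myeloid transcription factor C/EBP alpha, and Atrnl1 (0.936). Among marker lists its correlation was highest with that of eosinophils, basophils and mast cells (0.82), followed by monocytes (0.74) and late neutrophils (0.66). The first of these lists held markers that moved in opposite directions in KO-graft cells. Cd55 was most like Cr2 (0.878), the gene of complement receptor 2, followed by Bank1 (0.846), an adaptor of B-cell receptor signalling, and Sike1 (0.815). Its correlation was -0.16 with the B cell list and 0.54 with the monocyte list. Cd59a was most like Kif2a (0.886), Nmt1 (0.884) and Gckr (0.869), Cr1l like Clic1 (0.845), Arl2bp (0.806) and Tbcb (0.8), and C3ar1 like Fuca1 (0.853), Gm6277 (0.84) and Mfsd1 (0.83). Between members, Cfp and C3ar1 had the highest correlation (0.724) and Cd55 and Cd59a the lowest (-0.613).

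Of 43 other complement genes listed, 34 had a probe set with that symbol and 24 passed the filter and were tested. In knock-out GPI-negative cells 8 of them were lower and 2 higher, with a median log2 difference of -0.26. Of all genes 29.5% changed in this comparison, 14.8% lower and 14.8% higher. Against WT-graft cells KO-graft cells had 5 lower and 2 higher (median -0.11), where 7.39% of all genes changed. Against wild-type cells KO-graft cells also had 5 lower and 2 higher (median -0.11), where 12.4% of all genes changed. WT-graft against wild-type cells gave 1 lower gene, C1qa, where 0.842% of all genes changed.

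The chains of C1q, which starts the classical pathway and is made by macrophages, were lower in GPI-negative cells in all 3 comparisons. C1qa was 0.095 to 0.254 in knock-out GPI-negative against 0.666 to 0.700 in GPI-positive cells, and its log2 differences were -1.76 ± 0.17, -1.22 ± 0.16 and -2.08 ± 0.15 in the knock-out, against WT-graft cells and against wild-type cells (adjusted p = 1.29e-07, 5.2e-05 and 1.97e-08). C1qb differed by -1.10, -1.14 and -1.60 and C1qc by -1.03, -1.21 and -1.83. Between GPI-positive WT-graft and wild-type cells C1qa was lower too (-0.86 ± 0.16, adjusted p = 0.0141). There C1qb differed by -0.46 and C1qc by -0.62 without a call (adjusted p = 0.114 and 0.0825). C1qa and C1qc lay between the 7.2th and 22.6th percentile of all probe sets in the GPI-negative groups, and the response of the scale at such dim signal was not measured. Of 8 resident macrophage markers 6, 3 and 7 were lower in the same 3 comparisons and none was higher, and the part of these cells in the C1q differences was not tested.

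The ficolins, lectins that start the lectin pathway, were lower in the same comparisons. Fcnb, made by granulocyte precursors, had 1.298 to 1.341 in knock-out GPI-negative against 2.069 to 2.078 in GPI-positive cells and was 5.67-fold lower (log2 -2.50 ± 0.22, adjusted p = 3.06e-08). It was lower by -1.56 ± 0.21 against WT-graft cells and by -1.17 ± 0.19 against wild-type cells. Fcna, the ficolin of macrophages, differed by -0.92, -1.20 and -1.52 in the 3 comparisons.

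Complement receptors moved in different directions. Itgam, the alpha chain of complement receptor 3 on neutrophils and macrophages, was lower in the knock-out comparison (-1.62 ± 0.19, adjusted p = 1.16e-06) and not called in KO-graft cells (0.25 and -0.07), with an interaction of -1.87 ± 0.26 (adjusted p = 6.11e-05), the same signs as C5ar1 in the knock-out and between the recipients. Itgb2, its partner chain, differed by -0.51 ± 0.13 in the knock-out (adjusted p = 0.00608). Itgax, the alpha chain of complement receptor 4, which dendritic cells carry, was higher in all 3 comparisons, by 1.07 ± 0.12, 0.86 ± 0.11 and 0.58 ± 0.11. Cr2, which binds fragments of C3 on B cells, was higher in KO-graft cells by 0.76 ± 0.13 against WT-graft (adjusted p = 0.000756) and by 0.59 ± 0.12 against wild-type cells (adjusted p = 0.00239), and not called in the knock-out (-0.07 ± 0.14). Hc, the gene of C5, was lower in the knock-out (-0.61 ± 0.20, adjusted p = 0.0246), with a dim mean of 1.03 on the log2 scale in GPI-negative cells, and C1qbp, a mitochondrial protein first found as a C1q binder, was higher there (0.47 ± 0.14, adjusted p = 0.0111).

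**Figure D4:**
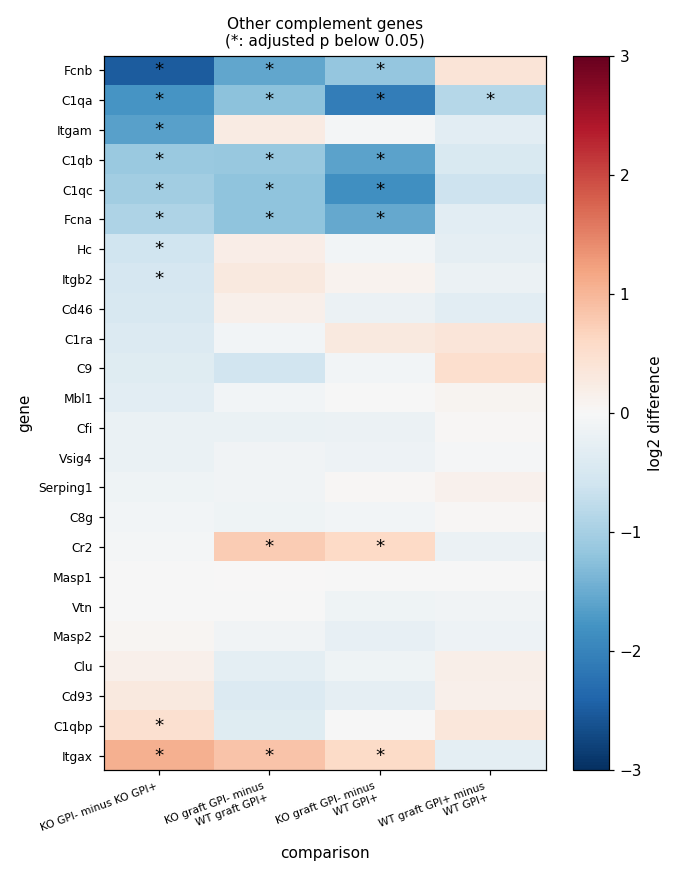
Log2 differences of the 24 other complement genes tested, in rows, over the 4 comparisons, in columns, with blue for lower and red for higher and asterisks where the adjusted p was below 0.05. C1qa, C1qb, C1qc, Fcna and Fcnb are lower in all 3 comparisons with GPI-negative cells, and Itgax is higher.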

How the data were processed

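RNA of sorted marrow cells was measured on 17 arrays. The authors' deposited table holds log10-like values of probe set signal, with arrays of a batch quantile-normalized (their sorted values differ by 0 within each batch). The sources used here do not state how background was corrected or probes were summarised. Per the submitters' processing notes, GCOS was among the tools. The base of 10 was read from the values: hybridisation controls at nominal 1.5, 5, 25 and 100 pM rose with log10 concentration at a mean slope of 0.912 to 1.11 in the 5 groups. The 2 knock-out groups had slopes of 0.912 (GPI-negative) and 0.993 (GPI-positive), so fold changes are approximate.

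Tests had been planned for log2 values, so the deposited values were converted to log2 and arrays centred on a common median. A probe set was kept if its value reached percentile 40 of the array on 3 or more arrays (32426 of 45101, with 64 controls left out), and each of 14245 genes was represented by its brightest such probe set with 1 symbol. Symbols came from the platform annotation, updated through gene identifiers (34741 of 34945 matched). limma 3.58.1 in R 4.3.3 fitted 5 group means with an intensity trend, and contrasts were taken within a batch. Benjamini-Hochberg adjustment ran over all genes, or over all kept probe sets where stated. Single values were compared by exact two-sided permutation of arrays. The number of arrays limits the precision.

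Members and gene lists were chosen with earlier results of these data known. Other complement genes were named when called with an absolute log2 difference of at least 1 in a comparison with GPI-negative cells, at most 8 (7 passed), together with the 3 genes most correlated with each member. Cr2 was named by its correlation with Cd55, and Itgb2, Hc and C1qbp were named after their values were seen. Same-numbered replicates did not deviate together (r = -0.0385 to -0.0172 in batch 1), nor in batch 2 (-0.18 to 0.098), so no replicate block was used. Alternatives covered the filter, normalization, probe set summary, variance trend, arrays fitted, a replicate block and the omission of each array.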

Additional observations from a re-analysis of the deposited data

Results flagged for a closer look

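For 10 genes named above, the difference between GPI-negative and GPI-positive cells was unequal in the knock-out and between the recipients, by limma's interaction term. These are not all the complement genes called. Of the 24 other complement genes tested 7 were called, 2 higher and 5 lower, where 19% of all genes were called. Cd93 was called as well (0.70, adjusted p = 0.0141) and is not among the 10. Among the members the interaction on the log2 scale was -1.66 for C5ar1, -1.16 for Cfp and -0.98 for Cd55. Among the other complement genes it was -1.87 for Itgam, -0.94 for Fcnb (adjusted p = 0.033), -0.83 for Cr2, -0.80 for Itgb2, -0.80 for Hc (adjusted p = 0.0418) and 0.83 for C1qbp, and it was 1.58 for Piga. With the knock-out GPI-positive arrays averaged into 1 sample, 5 of the 10 lost their call, namely Cd55, Fcnb, Cr2, Itgb2 and Hc (adjusted p = 0.0652, 0.178, 0.0502, 0.0576 and 0.192). Cfp lost its call with the mean of its probe sets (adjusted p = 0.156). The pairs of contrasts lie in different batches and differ in graft and treatment as well, which cannot be told apart from the difference.

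Each group of 4 arrays was examined on the 15 member probe sets with Dixon's test, in which the gap of the highest or lowest array to its neighbour is divided by the range of the group. In 1 of 30 groups the ratio passed the test's 95% critical value, which chance alone passes in about 5% of groups. On a dim C3ar1 probe set, wild-type replicate 1 had 0.356 against 0.298 to 0.308 on the other 3 arrays, a ratio of 0.837.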

How the results depend on the processing

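Of 213 alternative values for the 8 called member differences, interactions included, 190 kept their call, 23 lost it and none changed sign. Of the lost calls 18 were Cd55 against wild-type cells. C5ar1 in the knock-out and Cd55 between the recipients passed in all 27 settings each. Of 586 values for uncalled differences 5 passed, all of Cfp between the recipients, and 8 changed sign without a call. These were Cd59a in the knock-out (-0.0811 with the mean of probe sets, -0.103 without KO GPI-negative replicate 2, and up to 0.256 without 1 array), Cr1l against wild type (-0.0648 with the mean of probe sets, -0.0374 to 0.0929 without 1 array, the lowest without KO-graft replicate 1) and C3ar1 between WT-graft and wild-type cells (0.0154 with the replicate block, 0.0646 without WT-graft replicate 2, 0.0301 and 0.0127 without wild-type replicate 1 and 4, and down to -0.141 without 1 array).

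The number of members called in the knock-out was 1 with the mean of probe sets or the averaged GPI-positive arrays (Cfp lost), and 2 without any 1 array. Between the recipients it was 2 with the filter at the 60th percentile (Cfp gained) and 1 to 2 without 1 array. Against wild type it was 0 with the mean of probe sets, 1 with no filter, quantile normalization over all arrays, cyclic loess, no trend, the arrays of the batch only, the averaged GPI-positive arrays or the replicate block, and 1 to 2 without 1 array. The other complement genes called between WT-graft and wild-type cells numbered 2 with the mean of probe sets, 0 with the replicate block and 0 to 1 without 1 array, and in the interaction 2 with the averaged arrays and 5 to 8 without 1 array. With 1 array left out, the lowest and highest counts of other complement genes were 9 and 11 in the knock-out and 7 and 9 between the recipients. Over all genes the averaged arrays gave 1652 calls in the knock-out, 45 between WT-graft and wild-type cells and 978 in the interaction. WT-graft against wild-type cells gave 59 without trend and 45 with the replicate block. Without 1 array the counts over all genes were 3298 to 4276 in the knock-out, 680 to 1310 between the recipients, 1315 to 2067 against wild type, 21 to 262 between WT-graft and wild-type cells and 2095 to 3064 in the interaction. The causes were not tested. With the averaged arrays the lone sample is assumed to vary like the other groups.

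The replicate block changed the call of Cd55 against wild type alone among member calls (0.46, adjusted p = 0.0978). No separate value exists for the interaction with the arrays of the batch only, since it spans both batches, and C3ar1 was not tested with the filter at the 60th percentile. Dim signal limits C3ar1, C1qa, C1qc and Hc.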
